A study of Mus musculus with 2 samples.

Results

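Conventional type 1 dendritic cells (cDC1) were examined in 2 mouse single-cell libraries, and 128 of 13973 barcodes with at least 1000 unique molecular identifiers (UMIs, counts of single captured RNA molecules) met their definition. A member had at least 2 UMIs of Xcr1 and Clec9a summed, no UMI of Ccr7, at most 1 UMI of Cd3d, Cd3e and Cd3g summed, and fewer than 20 UMIs of C1qa, C1qb and C1qc per 10000. Xcr1 (ENSMUSG00000060509, chromosome 9, 123852315 to 123862029, minus strand, mm10) encodes the receptor for the chemokine XCL1. Clec9a (ENSMUSG00000046080, chromosome 6, 129408862 to 129424763, plus strand) encodes a receptor for actin exposed on dead cells. The other 3 limits keep out mature dendritic cells, T cells and macrophages, whose RNA can share a barcode. The library labelled WT (genotype label RUNX3 wt) gave 83 members of 8616 barcodes, and the library labelled KO (RUNX3 ko) gave 45 of 5357.

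cDC1 arise from bone marrow precursors under the transcription factors IRF8, BATF3 and ID2 and the cytokine receptor FLT3. They take up dead cells, present their antigens on MHC class I molecules to CD8 T cells (cross-presentation), and make interleukin-12 and CXCL9, which act on T and natural killer (NK) cells. NK cells in turn make XCL1 and FLT3 ligand, which attract cDC1 and sustain them in tumours. RUNX3 is a transcription factor of cytotoxic lymphocytes that is also known to act in dendritic cells in the response to transforming growth factor beta (TGF-beta).

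The series made mice without RUNX3, set up tumour models and asked how the gene bears on NK cell infiltration in colorectal cancer. Both libraries carry colon as the tissue label. Strain, sex, age, tumour model, the allele, the cells it is deleted in and the animals behind each library are not stated in the labels or file headers. Both libraries held few epithelial cells: 0.580% of WT and 0.336% of KO barcodes had at least 3 UMIs of an epithelial list. At least 1 UMI of Krt8 and Krt18 summed was found in 0.139% and 0.205%. A UMI of Ptprc, which marks blood-derived cells, was found in 93.2% and 92.4%.

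Each group is a single library, so nothing here was checked against replicates and no test is given. Genotype, animal and library cannot be told apart. Levels are UMIs summed over the members of a library per 1000000 UMIs (CPM), and every interval is a 95% interval that covers counting error only. Ratios of KO over WT are log2 values after adding 5 CPM to both. Of the genes, 7805 had at least 20 UMIs over both libraries in cDC1. Their median log2 ratio was -0.045, 45.1% lay above 0 and 54.9% below. A ratio of at least 2-fold was reached upwards by 85 of these genes (1.09%) and downwards by 214 (2.74%).

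The members held 1110281 UMIs in WT and 618841 in KO. Median depth was 11521 and 13277 UMIs per member, median gene number 3399 and 3539, and median mitochondrial share 0.431% and 0.395%. The libraries shared 17 barcodes, none of them a member's. By transcripts of Xist and of 4 Y-linked genes, 74 WT members were male-type and 9 had no call. In KO, 30 members were female-type, 12 male-type, 1 had both kinds of transcript and 2 had no call. The KO library as a whole held 2924 female-type and 1294 male-type barcodes and 548 with both, against 1 female-type and 7014 male-type in WT. Sex and genotype label therefore cannot be told apart except in the 12 male-type KO members. Their medians for some of the lists and some single values are given below.

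Runx3 transcripts were found in cDC1 of both libraries at a like level. Runx3 (ENSMUSG00000070691, chromosome 4, 135120652 to 135177990, plus strand, mm10) had 281 CPM in WT members (251 to 314) and 291 CPM in KO members (249.9 to 337). The ratio was 1.04 (0.857 to 1.25), and 65 WT and 38 KO members had a UMI. Reads were counted over the whole gene and the labels do not say which stretch was removed, so this level does not check the label, and each direction drawn from the library labelled KO is that of its label. Runx1, a related factor of blood cell development, had 573 and 658 CPM, and Runx2, known from bone formation, 98.2 and 116 CPM. Cbfb, the partner subunit of all RUNX proteins, had 126 and 113 CPM. Of these 4 genes, 3 were higher and 1 lower in KO, none by 2-fold, with a median log2 ratio of 0.12. In male-type cells alone the median was -0.017, Runx1 had a log2 ratio of 0.89 and Runx3 of 0.03.

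cDC1 were rare in both libraries, and the interval of the ratio of their shares included 1. Members made up 0.963% of WT barcodes (0.768 to 1.19%, exact binomial) and 0.840% of KO barcodes (0.613 to 1.12%), a ratio of 0.872 (0.593 to 1.27). Among barcodes that met 1 of 3 dendritic cell definitions (cDC1, Cd209a-positive cDC2, mature Ccr7-positive cells), cDC1 were 25.9% in WT and 20.3% in KO, a ratio of 0.784 (0.533 to 1.14). Per 100 cDC2 there were 86.5 and 54.9 cDC1, and per 100 macrophages 1.81 and 1.62. The NK share was 3.17% in WT and 1.79% in KO, so there were 30.4 cDC1 per 100 NK cells in WT and 46.9 in KO. Per 100 T cells there were 7.17 and 9.09. No interval was computed for these numbers per 100 cells, so no direction is read from them. In male-type barcodes alone the share ratio was 0.879.

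Members varied in how strongly they carried the 2 genes that chose them. Xcr1 and Clec9a were both found in 57 WT and 29 KO members, Clec9a alone in 19 and 14, and Xcr1 alone in 7 and 2. Exactly 2 UMIs were held by 20 WT and 12 KO members, and 38 and 25 barcodes with 1 UMI met all other limits and lie just outside. Cadm1, an adhesion protein of cDC1 that the definition did not use, had 611 CPM in WT members with 10 or more UMIs of the 2 genes, 480.3 CPM with 3 to 9, 67.1 CPM with 2, and 70.3 CPM just outside. In KO the same 4 values were 625, 859, 151 and 33.0 CPM. Cadm1 in members with exactly 2 UMIs was thus far below that of the other members. Of 8 other cDC1 markers, the median member with 2 UMIs had 4 in WT and 5.5 in KO, and the median member with 10 or more had 8 in both. Members with 10 or more UMIs were also deeper, at medians of 19421.5 and 17776 UMIs, against 7583 and 10678 with exactly 2. In a background for free RNA, 14 of 1184 WT and 9 of 507 KO T cells had at least 2 UMIs of Xcr1 and Clec9a.

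The limit on C1q removed more candidates than any other. Of 179 WT and 104 KO barcodes with at least 2 UMIs of the 2 genes, 54 and 29 were left out by C1q alone, 10 and 9 by Ccr7 alone, 7 and 6 by the Cd3 genes alone, and 25 and 15 by several limits. The 54 WT barcodes over the C1q limit had 376 CPM of Cadm1 and 747 CPM of Irf8, with 3701 CPM of Apoe, a lipid carrier of macrophages. The 29 KO barcodes over it had 149 CPM of Cadm1, 585 CPM of Irf8 and 3373 CPM of Apoe. The 10 WT members just inside it, at 10 to 20 per 10000, had 431 CPM of Cadm1 and 343 CPM of Apoe, and the 8 just outside, at 20 to 30, had 435 and 2458 CPM. Cadm1 was thus like on both sides of the WT limit. In KO the 4 members just inside, at a median of 1865 UMIs, had 626 CPM of Cadm1. The 2 KO barcodes just outside had none, and these are too few to compare.

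Summed over members, the markers of cDC1 that took no part in the definition were present in both libraries. Groups of members described below had little of some of them. Irf8, the factor on which the lineage depends, had 1432 CPM in WT members (1363 to 1504) and 1527 CPM in KO members (1431 to 1628). Batf3, its partner in the same program, had 139 CPM (118 to 162) and 144 CPM (115 to 177). Id2, an inhibitor of other lineage factors, had 669 and 871 CPM, and Flt3, the growth factor receptor, 135 and 163 CPM. Wdfy4, which cDC1 need for cross-presentation, had 992 and 1178 CPM. Naaa, a lysosomal lipid amidase, had 904 and 994 CPM. Each of these genes was slightly higher in KO, with log2 ratios of 0.05 to 0.38.

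Surface and endosomal markers were present in both libraries too. Itgae, the CD103 integrin chain of gut and migratory cDC1, had 221 CPM in WT and 267 CPM in KO, and at least 2 UMIs were found in 59.0% and 64.4% of members. In T cells, some of which carry CD103, that share was 4.15% and 5.66%, at median depths of 4456 and 5391 UMIs. With members thinned to 1000 UMIs, a UMI was found in 19.3% and 17.8% of cDC1 and 3.11% and 3.23% of T cells. Cd24a, a glycosylated surface protein, had 460.2 and 420.1 CPM. Tlr3, the endosomal receptor for double-stranded RNA, had 103 CPM (84.7 to 123) in WT and 158 CPM (129 to 193) in KO, a log2 ratio of 0.60. Hepacam2, an adhesion molecule of the immunoglobulin family, had 206 and 357 CPM (log2 ratio 0.78), and Dpp4, the CD26 peptidase, 60.3 and 103 CPM (0.73). Rab7b, a vesicle GTPase, went the other way with 282 and 200.4 CPM, a log2 ratio of -0.48, as did Plpp1, a lipid phosphatase, with 149 and 98.6 CPM. Of the 31 cDC1 identity genes with enough UMIs, of 32 measured, 21 were higher and 10 lower in KO, and none passed 2-fold in either direction. Their median log2 ratio was 0.12. These 31 include the 2 genes that chose the members. In male-type cells alone the median was -0.17, with Flt3 at -0.34, Batf3 at -0.32 and Irf8 at 0.03, so the small excess in KO was not seen there.

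**Figure D1:**
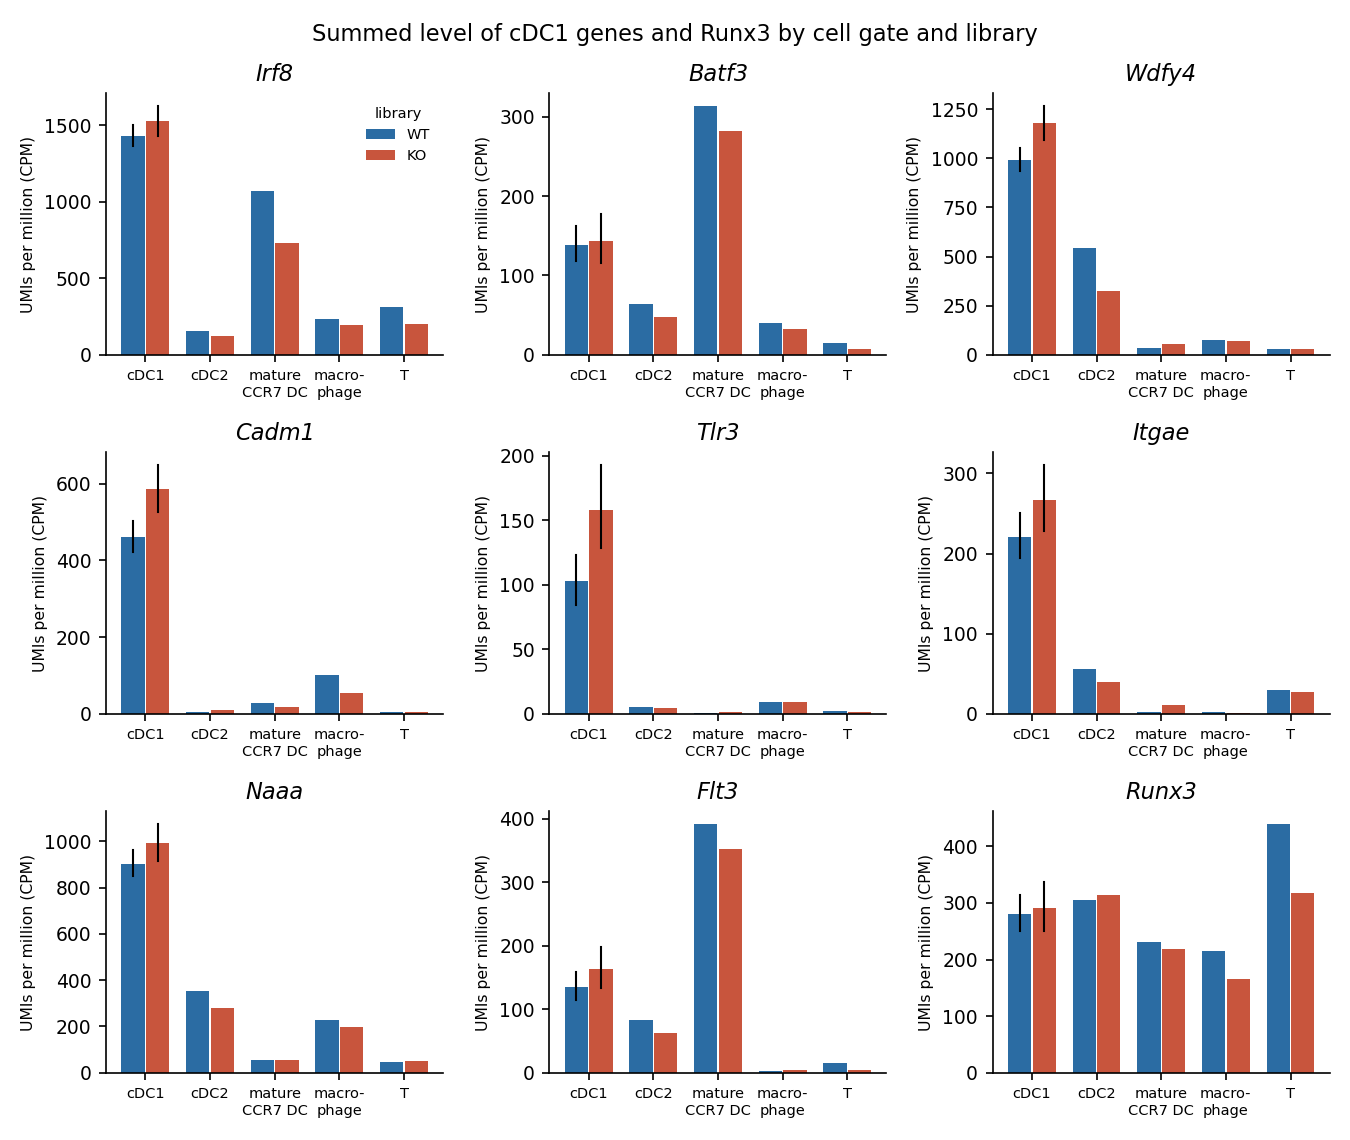
CPM (vertical axis, linear from 0) of 8 cDC1 genes and Runx3 in 5 cell gates, with WT in blue and KO in red and 95% counting intervals on the cDC1 bars. Cadm1, Tlr3 and Itgae stand highest in cDC1 in both libraries, while Batf3 and Flt3 are higher in mature CCR7 dendritic cells, at 314 and 281 CPM for Batf3.

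Against cDC2, the second conventional lineage, cDC1 had the genes of their own program high in both libraries. Of 31 identity genes, Xcr1 and Clec9a of the definition included, 22 were at least 2-fold higher in cDC1 in both libraries and none lower, where 2.77% of 9452 genes were 2-fold higher and 2.71% lower. Cadm1 had 5.04 CPM in WT cDC2 and 9.16 CPM in KO cDC2, against 461 and 585 CPM in cDC1. Tlr3 had 5.04 and 4.58 CPM in cDC2, and Irf8 154 and 121 CPM. Outside the marker list, P3h2, a collagen prolyl hydroxylase, had 63.9 and 92.1 CPM in cDC1 and 0 and 1.15 CPM in cDC2. Dnase1l3, a DNase of extracellular chromatin, had 132 and 72.7 CPM in cDC1 and 1.26 and 2.29 CPM in cDC2. Genes lower in cDC1 included Mgl2, a C-type lectin of cDC2, with 166 and 183 CPM against 1242 and 1243 CPM. Il1rl1, the interleukin-33 receptor, had 0.901 and 3.23 CPM in cDC1 and 37.8 and 74.5 CPM in cDC2. Cdh1, which encodes E-cadherin, had 17.1 and 16.2 CPM in cDC1 and 134 and 127 CPM in cDC2. The genes named singly here ranked by the smaller of both libraries' ratios, so their like direction in both follows from the choice. The cDC2 were chosen by Cd209a and by the lack of Xcr1 and Clec9a.

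Against mature dendritic cells, which have taken up antigen and turned on the lymph node homing receptor CCR7, the set of genes that differed was wider. In both libraries, 969 of 9807 genes (9.88%) were at least 2-fold higher in cDC1 and 773 (7.88%) at least 2-fold lower. Among 32 identity genes, which include the 2 of the definition here as in the other comparisons, 19 were higher and 4 lower. Septin3, a cytoskeletal GTPase, had 214 and 210.1 CPM in cDC1 and 2.53 and 1.04 CPM in mature cells, and Wdfy4 had 34.6 and 55.2 CPM in mature cells. Batf3 was instead higher in mature cells, at 314 and 281 CPM. Mreg, a melanosome transport gene that marks mature cells, had 0.901 CPM in WT cDC1 and no UMI in KO cDC1, against 831 and 798 CPM. Ccl22, a chemokine for regulatory T cells, had 26.1 and 69.5 CPM in cDC1 and 2999 and 3559 CPM in mature cells. Fabp5, a fatty acid carrier, had 37.8 and 35.6 CPM against 2052 and 2820 CPM. Of 23 mature genes, 22 were at least 2-fold lower in cDC1 in both libraries. Ccr7 and Fscn1, which chose the mature cells, are on that list. MHC class II genes were on the cDC1 side: 7 of 15 were at least 2-fold higher and 1 lower, with H2-Ab1, a class II beta chain, at 7848 and 8432 CPM against 2088 and 2122 CPM.

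Against macrophages, the most frequent cell of both libraries, 500 of 16528 genes (3.03%) were at least 2-fold higher and 766 (4.63%) at least 2-fold lower in cDC1 in both libraries. Of 32 identity genes, 27 were higher and 1 lower, and Xcr1 and Clec9a among them were at 0 in macrophages by choice of those cells. Plet1, a surface protein of gut dendritic cells, had 381 and 553 CPM in cDC1 and 4.93 and 4.47 CPM in macrophages. Flt3 had 2.58 and 4.35 CPM in macrophages, and Zbtb46, a factor of conventional dendritic cells, 3.77 and 3.06 CPM against 119.8 and 129 CPM in cDC1. Apoe had 168 and 219.8 CPM in cDC1 and 6407 and 7711 CPM in macrophages. The C1q limit set this boundary in part.

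Antigen presentation genes stood at a like level in the 2 libraries. Of 24 genes of MHC class I and cross-presentation, 12 were higher and 12 lower in KO, with 1 past 2-fold and a median log2 ratio of -0.02, or -0.12 in male-type cells alone. B2m, the class I light chain, had 1347 CPM in WT and 1522 CPM in KO, and H2-K1, a class I heavy chain, 1215 and 1168 CPM. Tap1, a subunit of the peptide transporter, had 309 and 233 CPM, and Calr, a chaperone of the loading complex, 1072 and 805 CPM. Tapbpl, a peptide editor, was the gene past 2-fold, with 22.5 CPM (14.6 to 33.2) in WT and 54.9 CPM (38.05 to 76.8) in KO. With members thinned to 1000 UMIs its log2 ratio was -0.10 instead of 1.12.

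Of 14 MHC class II genes with enough UMIs, of 15 measured, 6 were higher and 8 lower in KO, none by 2-fold, with a median of -0.03, or 0.095 in male-type cells alone. Cd74, the invariant chain, had 14368 and 12784 CPM, H2-Ab1 7848 and 8432 CPM, and Ciita, the master regulator of class II genes, 218 and 231 CPM. The summed class II level per member ran from 6.04 to 713 UMIs per 10000 in WT with a median of 399, and from 19.0 to 644 in KO with a median of 375. The ranges overlapped over most of their length, and WT reached further at both ends.

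Cytokine and chemokine genes were more often higher than lower in KO, and Il12b came from few cells. Of 15 such genes with enough UMIs, of 24 measured, 10 were higher and 5 lower in KO, and 3 were 2-fold higher. Their median log2 ratio was 0.33, and over all alternatives, male-type cells alone included, it stayed between 0.10 and 0.95. Il12b, the p40 subunit of interleukin-12, had 18.9 CPM (11.7 to 28.9) in WT and 82.4 CPM (61.4 to 108) in KO, a log2 ratio of 1.87. These came from 21 UMIs in 4 WT members and 51 UMIs in 6 KO members. At least 2 UMIs were found in 3 of 83 WT members (3.61%, 0.752 to 10.2%) and 5 of 45 KO members (11.1%, 3.71 to 24.1%), intervals that overlap. With members thinned to 1000 UMIs, a UMI was found in 2.41% and 6.67%. The share with at least 2 UMIs was 1.12% and 0.404% in T cells, 0% in cDC2 of both libraries (0 of 96 and 0 of 82), and 50.7% and 51.6% in mature dendritic cells. Interleukin-12 transcripts were thus rare in the cDC1 as defined here, which leaves out Ccr7-positive cells. Members with at least 2 UMIs of Mki67 and Top2a held 85.7% of the Il12b UMIs in WT and 80.4% in KO. They also held 47.3% and 38.2% of the Irf8 UMIs. In WT 3 members held 20 of the 21 Il12b UMIs, and in KO 3 held 39 of 51. No link of Il12b to cell division is read from this. Il12a, the other subunit of interleukin-12, had 0 UMIs in WT and 1 UMI in KO.

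Cxcl9, a chemokine for CXCR3-positive T and NK cells, was lower in KO, with 578 CPM (534 to 625) in WT and 333 CPM (289 to 382) in KO, a log2 ratio of -0.79. At least 2 UMIs were found in 34.9% of WT and 33.3% of KO members, against 3.80% and 5.45% of T cells. With members thinned to 1000 UMIs, a UMI of Cxcl9 was found in 14.5% and 22.2%, so the summed level and the share of members did not go the same way and no order is read from the share. A single KO member held 37.4% of the KO UMIs. Cxcl10, a chemokine for the same receptor, had 66.6 and 79.2 CPM, and Cxcl16, a chemokine for CXCR6, 254 and 284 CPM. Ccl4, a chemokine for T cells and monocytes, had 339.6 CPM in WT and 671 CPM in KO, and Ccl3, a related chemokine, 32.4 and 107 CPM. In macrophages Ccl4 had 385 and 1139 CPM and Ccl3 124 and 338 CPM, so both chemokines were higher in KO in macrophages too. Tnf, an inflammatory cytokine, had 36.9 and 77.6 CPM in cDC1, and Il1b, another, 503 and 669 CPM. Ccl22 had 26.1 and 69.5 CPM. Ccl17, a chemokine for CCR4 like Ccl22, had 222 and 281 CPM. Ifnb1 had no UMI in either library, and Il6 had 1 and 2 UMIs.

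Molecules that cDC1 present to T cells showed no gene past 2-fold. Of 17 costimulation and checkpoint genes with enough UMIs, of 23 measured, 9 were higher and 8 lower in KO, with a median log2 ratio of 0.08, or 0.31 in male-type cells alone. Cd80, a ligand of CD28, had 99.1 CPM (81.4 to 119) in WT and 184 CPM (152 to 221) in KO, whereas Cd86, the second ligand, had 594 and 525 CPM. Cd274, which encodes PD-L1, had 94.6 CPM (77.3 to 114) and 184 CPM (152 to 221), and Icam1, an adhesion ligand, 81.1 and 145 CPM. Cd80, Cd274 and Icam1 were thus higher in KO and Cd86 lower. Cd83, a surface protein of activated dendritic cells, had 730.4 and 850.0 CPM. Havcr2, the TIM-3 receptor of cDC1, had 326 and 304 CPM. Ido1 had 1 and 0 UMIs.

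Among receptors for dead cells, 4 of 8 genes with enough UMIs (of 13) were higher and 4 lower in KO, with a median of 0.03. Timd4, the phosphatidylserine receptor TIM-4, had 9.91 CPM (4.95 to 17.7) in 7 WT members and 59.8 CPM (42.1 to 82.4) in 9 KO members, a log2 ratio of 2.12. It was also higher in KO in mature dendritic cells, at 11.8 and 47.9 CPM, and in cDC2, at 25.2 and 52.7 CPM. Lrp1, a scavenger receptor, had 49.5 and 17.8 CPM (log2 ratio -1.26), and it had 322 and 377 CPM in macrophages. Clec9a, one of the genes that chose the members, had 256 and 296 CPM, and Cd36, a scavenger receptor, 151 and 169.7 CPM. Axl, a receptor kinase for bridged phosphatidylserine, had 117 and 90.5 CPM.

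Interferon response genes were lower in KO more often than higher. Of 30 genes with enough UMIs, of 38, 21 were lower and 9 higher, and the median log2 ratio was -0.30. Without the members high in macrophage genes, described below and more frequent in WT, it was -0.11. Over all alternatives, male-type cells alone included, it stayed between -0.45 and -0.047. The 1 gene past 2-fold was Ifit2, an interferon-induced RNA-binding protein, with 44.1 CPM (32.6 to 58.3) in WT and 9.70 CPM (3.56 to 21.1) in KO. Zbp1, a sensor of nucleic acids, had 79.3 and 37.2 CPM, Isg15, a ubiquitin-like modifier, 121 and 85.6 CPM, and Irf7, an amplifier of the response, 97.3 and 71.1 CPM. A single WT member held 38.8% of the Ifit2 UMIs, and without it the ratio was -1.13. The summed list had a median of 23.3 UMIs per 10000 per WT member and 22.0 per KO member, with maxima of 163 and 106. The median members were thus close together. Of 15 pattern recognition genes with enough UMIs, 8 were higher and 7 lower, none by 2-fold, with a median of 0.025, or -0.14 in male-type cells alone. Tlr11 and Tlr12, receptors for profilin of parasites, had 14.4 and 16.2 CPM and 10.8 and 14.5 CPM.

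Genes of the TGF-beta pathway and of integrins were listed because RUNX3 is known to act with SMAD proteins. Of 17 genes with enough UMIs, of 18, 8 were higher and 9 lower in KO, and the median log2 ratio was -0.12. It lay above 0 in male-type cells alone (0.025) and without the members with Siglech (0.012), with NK RNA (0.041) or high in macrophage genes (0.19), groups described below, so no direction is read from it. Smad3, a signal transducer of the pathway, was the gene past 2-fold, with 36.03 CPM (25.7 to 49.1) in WT and 11.3 CPM (4.55 to 23.3) in KO. Without members high in macrophage genes, described below, its log2 ratio was -0.56 instead of -1.33. Tgfb1, the ligand, had 190.0 and 134 CPM, Itgb7, the partner chain of CD103, 195 and 160.0 CPM, and Itga4, an integrin of gut homing cells, 260.3 and 333 CPM. Cdh1, the ligand of CD103, had 17.1 and 16.2 CPM.

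Of 9 genes for migration with enough UMIs, 6 were higher and 3 lower in KO, with a median of 0.31, or 0.050 in male-type cells alone. Cxcr4, the CXCL12 receptor, had 21.6 and 51.7 CPM, and Cxcr3, the CXCL9 receptor, 17.1 and 38.8 CPM. Ccr2, a receptor of monocytes and early dendritic cells, had 222 and 124 CPM. Of 23 dendritic cell transcription factors, 13 were higher and 10 lower, and only Irf4, a cDC2 factor, was past 2-fold among them, with 11.7 and 30.7 CPM. Without the KO member with most Irf4, its log2 ratio was 0.59 instead of 1.10, and that of Cxcr4 0.79 instead of 1.09. Of 23 immediate early and stress genes, which tissue dissociation can induce, 17 were higher and 6 lower with a median of 0.21, or -0.16 in male-type cells alone. Atf3, a stress factor on that list, had 491 and 787 CPM.

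More cDC1 than mature dendritic cells carried transcripts of dividing cells, and in cDC1 several mitotic genes were lower in KO. At least 2 UMIs of Mki67, a nuclear protein of dividing cells, and Top2a, a DNA topoisomerase, were found in 31 of 83 WT members (37.3%, 27.0 to 48.7%) and 15 of 45 KO members (33.3%, 20.001 to 48.95%). In mature cells the shares were 2.82% and 13.7%, in T cells 15.0% and 16.8%, and in cDC2 5.21% (1.71 to 11.7%) in WT and 22.0% (13.6 to 32.5%) in KO. The share was thus alike between libraries in cDC1 and higher in KO in cDC2. With every member thinned to 1000 UMIs, a UMI of either gene was found in 12.05% and 17.8% of cDC1 and in 1.04% and 12.2% of cDC2. Against mature cells, 21 of 29 cell cycle genes were at least 2-fold higher in cDC1 in both libraries.

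Between libraries, 21 of 29 cell cycle genes were lower in KO cDC1 and 8 higher, and 5 were 2-fold lower, with a median log2 ratio of -0.35. Those 5 were Ube2c, Birc5, Bub1, Ccnb1 and Cdc20, which act in mitosis. Ube2c, a ubiquitin-conjugating enzyme of mitotic exit, had 183 CPM (159 to 209.8) in WT and 48.5 CPM (32.7 to 69.2) in KO, and Birc5, of the chromosomal passenger complex, 119 and 50.1 CPM. Among other genes of the list, chosen after their values were seen, Pcna, the sliding clamp, had 125 and 118 CPM, Mcm5, a replicative helicase subunit, 60.3 and 63.0 CPM, and Rrm2, a ribonucleotide reductase subunit, 54.9 and 71.1 CPM. In male-type cells alone the median of the list was 0.21, with Ube2c at -0.86 and Birc5 at -0.35, and thinning to 1000 UMIs turned Bub1 (0.68) and Cdc20 (0.76). The direction of the list was thus not seen in male-type members.

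**Figure D2:**
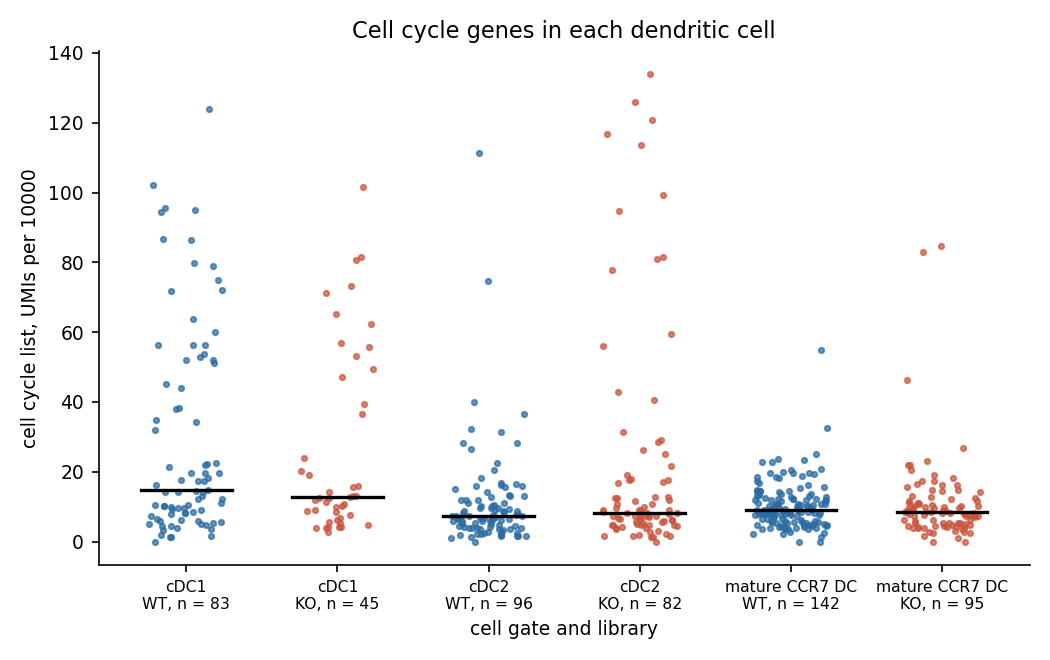
Summed UMIs of the cell cycle list per 10000 UMIs (vertical axis) in each cell of the cDC1, cDC2 and mature CCR7 dendritic cell gates of both libraries, with the median as a bar. cDC1 medians are 14.8 in WT and 12.8 in KO, with cells up to 124 and 102, while cDC2 in KO hold more high cells than cDC2 in WT.

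The 10 genes with the highest ratios of KO over WT in cDC1 were Ccl7, Blnk, Il12b, Siglech, Cox6a2, Ccl3, Ifitm1, Adam23, Ccl2 and Tubgcp5. Siglech, a lectin of plasmacytoid dendritic cells (pDC), had 41.4 CPM (30.3 to 55.3) in WT and 137 CPM (109.7 to 169.8) in KO, a log2 ratio of 1.62. Blnk, a signalling adaptor of B cells and pDC, had 18.9 and 108 CPM (log2 ratio 2.24), and Cox6a2, a cytochrome oxidase subunit of pDC, 18.0 and 64.6 CPM. All 7 genes of the pDC list were higher in KO, 4 of them by 2-fold, with a median of 1.06, or 0.21 in male-type cells alone.

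These UMIs came from 5 members in each library with at least 2 UMIs of Siglech, which is 6.02% of WT and 11.1% of KO members. They held 97.8% and 98.8% of the Siglech UMIs, all of those of Blnk and Cox6a2, and 70.0% and 86.0% of those of Tcf4, a factor on which pDC depend. All 10 had a UMI of Clec9a, and only 1, in KO, had a UMI of Xcr1. In WT they had 27.0 CPM of Cadm1 and 27.0 CPM of Naaa, against 476 and 935 CPM in the other WT members. In KO these were 430.3 and 482 CPM against 601 and 1047 CPM. Wdfy4 and Batf3 were also lower in the members with Siglech in both libraries. Irf8 was instead higher in them, at 1619 against 1426 CPM in WT and 2083 against 1469 CPM in KO. Clec9a is also known from pDC and from common precursors of dendritic cells. Without these 10 cells the median of the pDC list was -0.15 and that of the identity list 0.14. Siglech had 0.932 and 1.78 CPM outside them. This level and the Siglech shares above follow in part from choosing the cells by Siglech.

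Ifitm1, an interferon-induced membrane protein, was likewise held by few cells. It had 148 CPM (126 to 172) in WT and 427 CPM (377 to 481) in KO, a log2 ratio of 1.499. In WT 6 members with at least 10 UMIs held 78.7% of its UMIs, and in KO 7 members held 95.5%. These cells had 10.5 and 26.9 CPM of Cadm1, against 504 and 708 CPM in the others, with Batf3 at 115 and 108 CPM against 141 and 152 CPM. Ifitm1 had 952 and 1120 CPM in cDC2. All 13 had a UMI of Clec9a and 3 in each library had a UMI of Xcr1. These cells, chosen by Ifitm1, thus had Batf3 with little Cadm1.

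The chemokines Ccl7 and Ccl2, which attract monocytes, were higher in KO in cDC1 and in macrophages. Ccl7 had 13.5 CPM in WT and 90.5 CPM in KO, and Ccl2 had 55.8 CPM (42.8 to 71.6) and 145 CPM (117 to 179). In macrophages Ccl7 had 521 and 1047 CPM and Ccl2 642 and 1316 CPM, several times the level in cDC1. The part of free macrophage RNA in the cDC1 values was not tested. A single KO member held 64.3% of the Ccl7 UMIs, and without it the log2 ratio was 1.06 instead of 2.37. For Ccl3 and Adam23, an adhesion metalloprotease relative, the ratios without the top KO member were 0.92 instead of 1.58 and 0.47 instead of 1.33. In male-type cells alone Ccl2 was -0.53 and Cox6a2 -0.60, so both turned. Tubgcp5, of the gamma-tubulin ring, was spread over 16 WT and 18 KO members with 18.0 and 50.1 CPM.

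**Figure D3:**
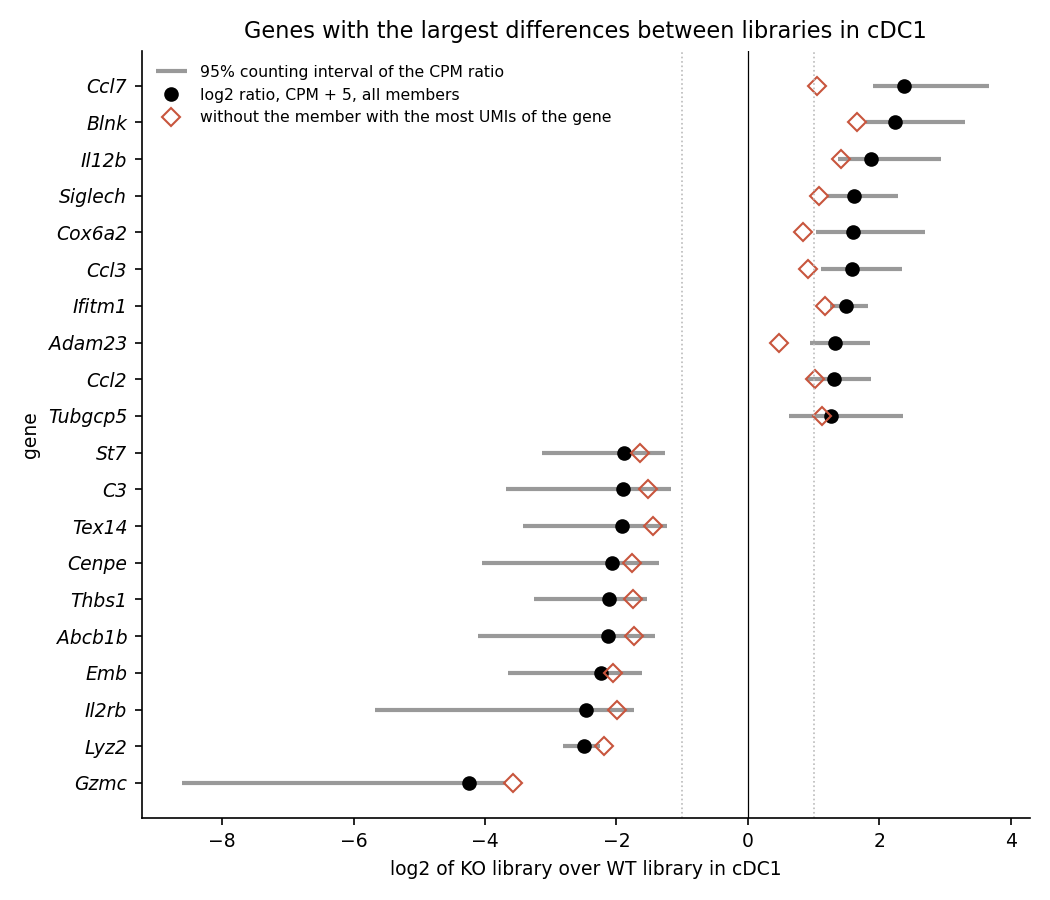
Log2 ratio of KO over WT in cDC1 (horizontal axis) for the 10 highest and 10 lowest genes, with the 95% counting interval of the CPM ratio as a grey line and the ratio without the member richest in the gene as an open diamond. Adam23 lies at 1.33 with and 0.47 without that member and Ccl7 at 2.37 and 1.06. Gzmc and Lyz2 remain below -2, but in WT 4 members held 96.4% of the Gzmc and 21 held 75.6% of the Lyz2 UMIs. Leaving out 1 member cannot show such dependence on a few cells.

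The 10 genes with the lowest ratios were Gzmc, Lyz2, Il2rb, Emb, Abcb1b, Thbs1, Cenpe, Tex14, C3 and St7. Gzmc, a granzyme, had 151 CPM in WT (168 UMIs) and 3.23 CPM in KO (2 UMIs), a ratio of 0.0214 (0.00257 to 0.0784). Il2rb, the interleukin-2 receptor beta chain, had 49.5 and 4.85 CPM, and Gzma, another granzyme, 284 and 1.62 CPM. NK cells had 8740 and 8309 CPM of Gzmc.

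The 4 WT members with at least 2 UMIs of the NK list held 99.7% of the Gzma, 96.4% of the Gzmc, 87.3% of the Il2rb and 37.1% of the Emb UMIs of WT cDC1. Gzma is on that list, so its share follows from the choice of cells, while Gzmc, Il2rb and Emb are not on it. These members also had 472 CPM of Cadm1 and 994 CPM of Wdfy4, and a median depth of 23668 UMIs, against 11521 over all WT members. Of 7 NK genes, all 4 with enough UMIs were at least 2-fold lower in KO. Summed per member, the list ran from 0 to 147 UMIs per 10000 in WT and from 0 to 1.14 in KO. Ncr1, Klrb1c, Eomes, Prf1 and Nkg7 had no UMI in KO members. Against a floor of 3 UMIs over all KO members, Prf1, the pore protein of killer cells, was 4.64-fold lower. Nkg7, a granule protein, was 11.0-fold lower. The floor covers counting error only, and over the alternatives the log2 ratios of both genes rose as high as -0.26. The median log2 ratio of the 4 genes was -3.00, or -2.02 with the genes at 0 set to that floor. NK cells made up 3.17% of WT and 1.79% of KO barcodes, and whether a cDC1 and an NK cell shared these 4 barcodes was not tested. Without them Gzmc had a log2 ratio of -0.39 and Il2rb of -0.26.

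Genes of the macrophage list were more often lower than higher in KO members. Lyz2, the lysozyme of macrophages and neutrophils, had 1091 CPM (1030 to 1154) in WT and 189 CPM (156 to 227) in KO, and a UMI in 77 and 33 members. Of 19 macrophage genes with enough UMIs, of 20, 15 were lower and 4 higher in KO, 6 were 2-fold lower, and the median log2 ratio was -0.81, or -1.05 in male-type cells alone. Among these were Lyz2, Ccl6, Arg1, C1qc and Fcgr1. C1qc took part in the definition, which holds C1q under the same limit in both libraries. Apoe went against the list with 168 and 219.8 CPM, and Csf1r, the growth factor receptor of macrophages, had 77.5 and 40.4 CPM. No gene of the list was at 0 in both libraries, and its sum per member ran from 2.67 to 371 UMIs per 10000 in WT and from 2.71 to 102 in KO, with medians of 15.2 and 13.0. The medians were close and the WT members reached higher.

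Members with most UMIs of the macrophage list made up a larger share in WT, though no interval is given for these shares. Over 50 UMIs of the list per 10000 were held by 21 WT members (25.3%) and 6 KO members (13.3%), and these held 75.6% of the Lyz2 and 83.5% of the Thbs1 UMIs in WT. Thbs1, an adhesive glycoprotein of activated macrophages, had 114 CPM in WT and 22.6 CPM in KO. Lyz2 had 3479 CPM in those 21 WT members and 349 CPM in the other 62, against 194 CPM in the other 39 KO members. The 21 WT members also held 97.8% of the Siglech UMIs of WT cDC1. Ccr2 and Plac8 on the list are known from other cells, pDC included. Cadm1 in these WT members was 281 CPM against 517 CPM in the other WT members. The 6 KO members held 71.8% of the Siglech UMIs of KO cDC1. Their Lyz2, at 126 CPM, was below that of the other KO members, while their Apoe was 715 CPM against 179 CPM. Without the cells over 50, the median log2 ratio of the list was 0.05, that of Lyz2 -0.83, of Thbs1 -0.20, and the share ratio of cDC1 was 1.01. The values of the list and of Lyz2, which is on it, follow in part from leaving out cells by that list. Lyz2 was lower in KO in other gates too, with 9525 and 4587 CPM in macrophages, 1003 and 203 CPM in mature dendritic cells, 839 and 201 CPM in NK cells and 1186 and 899 CPM in T cells. The part of free or shared macrophage RNA in the cDC1 value was not tested.

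**Figure D4:**
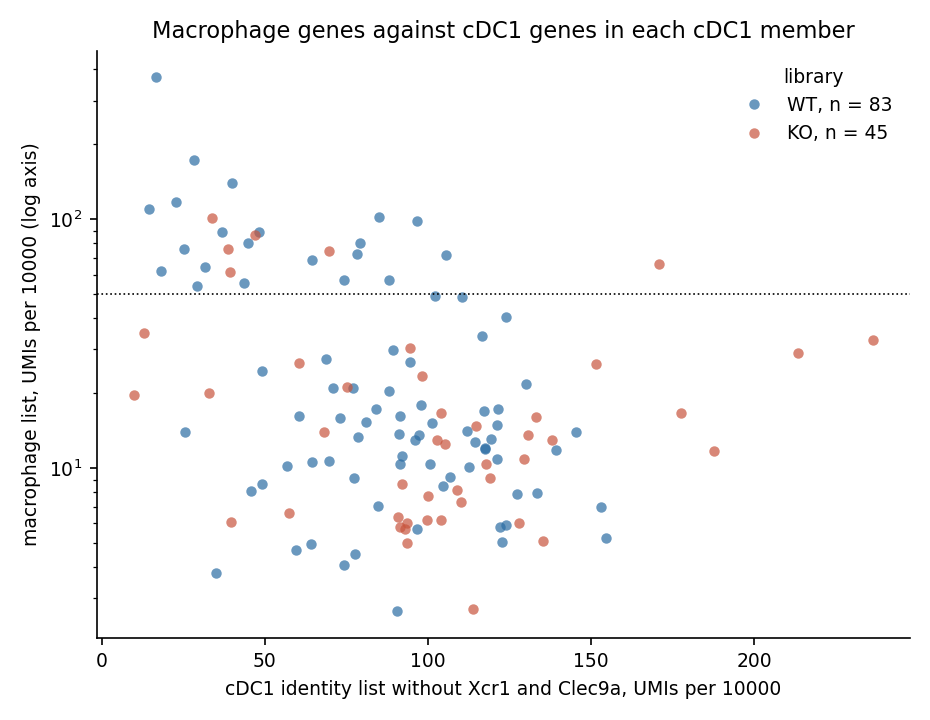
UMIs of the macrophage list per 10000 (vertical log axis) against UMIs of the cDC1 identity list without Xcr1 and Clec9a (horizontal axis) in each of 83 WT and 45 KO members, with a dotted line at 50. The 21 WT and 6 KO members above the line lie mostly at low identity values, and the highest reaches 371.

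The other lowest genes were mixed. Emb, an adhesion glycoprotein, had 94.6 CPM in 39 WT members and 16.2 CPM in 5 KO members, a log2 ratio of -2.23, and -1.70 without the members with NK RNA. Abcb1b, an efflux pump, had 59.4 and 9.70 CPM, and C3, a complement protein, 55.8 and 11.3 CPM, with a log2 ratio of 0.66 instead of -1.90 without the members high in macrophage genes. Cenpe, a mitotic kinesin, had 56.7 CPM in 21 WT members and 9.70 CPM in 2 KO members. Tex14, a protein of the germ cell bridge and the kinetochore, had 68.5 and 14.5 CPM, and St7, a little described membrane protein, 84.7 and 19.4 CPM.

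Some markers of other cell types were at 0 in cDC1. Dcn, Krt8, Krt18, Krt19 and Cd79a had no UMI in either library, and S100a8 and S100a9 had 1 UMI each, in KO. Of the fibroblast list, Col3a1 had 80 UMIs in 7 WT members, 85.0% of them in 1 member, and Sparc 58 UMIs in 3. Neither had a UMI in KO. Against a floor of 3 UMIs they were 14.9-fold and 10.8-fold lower. That floor covers counting error only, and few WT members held these UMIs, so no lower bound is read from it. Cd209a, a cDC2 marker, had 25.2 and 25.9 CPM, with at least 2 UMIs in 3 WT and 4 KO members. Of 16 cDC2 genes with enough UMIs, 9 were higher and 7 lower in KO. S100a4, a calcium-binding protein on that list, had 356 and 196 CPM, a log2 ratio of -0.85. Of the mature list, Fscn1 had 8 and 0 UMIs and Cacnb3 2 and 2, although only Ccr7 of this list was used to choose members.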

How the data were processed

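RNA was counted in 2 libraries of barcoded cells, each deposited as a matrix of UMI counts that the authors made with Cell Ranger 8.0.1, per the file headers. The submitters' processing notes name Seurat 3 and mm10. The labels' protocol describes a microwell chip with barcoded beads, while the deposited barcodes have 16 bases, and the sources do not settle which platform was used. From the 55357 features, barcodes with at least 1000 UMIs were kept. No clustering was done: cells were chosen by the limits given above. cDC2 had at least 2 UMIs of Cd209a and none of Xcr1, Clec9a or Ccr7. Mature cells had at least 2 UMIs of Ccr7 and 1 of Fscn1. Macrophages had C1q of at least 20 per 10000, and T cells at least 3 UMIs of the Cd3 genes. NK cells had at least 2 UMIs of Ncr1, Klrb1c and Klre1 summed and none of Xcr1 or Clec9a. They met the Cd3 and C1q limits of the cDC1, and their definition was added after the data had been seen.

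UMIs were summed per library (Python 3.11.15, NumPy 2.4.6, pandas 2.3.3, SciPy 1.17.1, matplotlib 3.10.9), tested on simulated data first. Intervals are exact Poisson for levels, exact binomial for shares and conditional binomial for ratios, at 95%. Described as 10 highest and 10 lowest are genes with at least 50 UMIs and a UMI in 10% of the members of a library, leaving out mitochondrial, ribosomal, haemoglobin, immunoglobulin, T cell receptor, numbered predicted, Xist and Y-linked genes. Genes named against other cells ranked highest by the smaller of both libraries' ratios. Of the 29 lists, the highest and 2-fold members could be named, and other members named were chosen after their values were seen. The members and lists were chosen with earlier results of these data known. Doublets were not removed: Scrublet (scanpy 1.11.5) marked 2 WT and 1 KO barcodes, which shows that its threshold had not worked. The values of 1 gene are not reported here. Gene coordinates come from GENCODE M21. Alternatives changed the limits, the added CPM, the gene filter, the weights and the depth.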

Additional observations from a re-analysis of the deposited data

Results flagged for a closer look

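For 7 genes the KO library was at least 2-fold lower than WT in cDC1 and at least 2-fold higher in another dendritic cell gate. With 1 library per group these opposite directions were not tested. Against mature CCR7 dendritic cells, Thbs1 had a log2 ratio of -2.11 in cDC1 and 2.11 in mature cells, and Arg1, the arginine-degrading enzyme of macrophages, -1.38 and 3.14. Lrp1 had -1.26 in cDC1 and 1.70 in mature cells, and Mmp12, a macrophage elastase, -1.31 and 2.55. Mmp12 in cDC1 came from 123 CPM in 12 WT members and 46.9 CPM in 5 KO members. All 4 are known from macrophages, and the part of macrophage RNA in these values was not tested. Without the members high in macrophage genes Arg1 was at 0.46 and Thbs1 at -0.20. Arg1 is on the macrophage list, so its value follows in part from the choice of cells.

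Against cDC2, 3 genes of dividing cells went opposite ways. Ube2c had -1.81 in cDC1 and 3.25 in cDC2, and Birc5 -1.17 and 2.29. Tubb4b, a tubulin, had -1.11 and 1.17, from 139 CPM in 45 WT members and 61.4 CPM in 17 KO members of the cDC1. In cDC2, cells with at least 2 UMIs of Mki67 and Top2a made up 5.21% in WT and 22.0% in KO.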

How the results depend on the processing

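No paired analysis was possible because each group has 1 library. Counting error and 45 KO members limit every ratio. Of 2364 values recomputed, 1912 stayed within a margin, 419 moved past it and 33 turned. The margin was counting error for single genes and the share ratio, and 1.5 times for counts of genes. For list medians it was the standard deviation of the members' ratios over the root of their number. Only log2 ratios of at least 2-fold could count as turned. Smaller list medians that changed sign, as in male-type cells, are thus not among the 33. The causes were not tested. The 85 genes 2-fold higher became 182 in male-type cells, 152 and 16 with 1 and 20 CPM added, 30 with at least 50 UMIs, 235 with cells weighted alike and 48 with members thinned to 1000 UMIs. The 214 lower became 133 without the C1q limit, 756 in male-type cells, 369 and 71 with 1 and 20 CPM added, 84 with at least 50 UMIs and 68 thinned. The share ratio stayed between 0.804 and 1.01 over 17 alternatives.

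Log2 ratios that turned include the following. Without members with Siglech, the pDC list had -0.15, Ccr9 -0.74 and Ly6d -0.25. Without members high in macrophage genes, Arg1 had 0.46, C1qc 0.010, C3 0.66, Ccr9 -0.14 and Ly6d -0.31. Without those with NK RNA, Gzma and Skap1 had 0.15. In male-type cells, Ccl2 had -0.53, Cox6a2 -0.60 and Fcgr1 0.33. Thinned, Bub1 had 0.68, C1qc 0.28, Ccr9 -0.97, Cdc20 0.76, St7 0.82 and Tapbpl -0.10. With 1 UMI of Xcr1 and Clec9a enough, Ccl7 had -0.040, Emb 0.078, Fcgr1 0.062 and Thbs1 1.53. With both genes required, Ccr9 had -0.76 and Ly6d -0.31. Without the C1q limit, Arg1 had 0.12, Lrp1 0.077 and Thbs1 1.38. Without the Ccr7 limit, Arg1 had 1.06, Ly6d -0.31 and Thbs1 1.51. Leaving out members with Siglech, with NK RNA, high in macrophage genes or richest in a gene was chosen after seeing the data.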

Other observations

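Genes of other programs in cDC1 gave mostly small ratios. Of 11 general dendritic cell genes with enough UMIs, of 12, 9 were higher and 2 lower in KO, with a median log2 ratio of 0.22 and none past 2-fold. Of 18 inflammatory genes with enough UMIs, 10 were higher and 8 lower, and the list summed to 2759.7 CPM in WT and 3597 CPM in KO. Its median was 0.02, -0.098 in male-type cells alone and 0.92 without the members high in macrophage genes. Nfkbia, the inhibitor of NF-kappa-B that is itself induced by it, had 388 and 685 CPM, while Cxcl2, a neutrophil chemokine, had 360.3 and 250.5 CPM. Of 17 hypoxia and glycolysis genes with enough UMIs, 7 were higher and 10 lower, with a median of -0.07. It was 0.43 in male-type cells alone and 0.097 without the members high in macrophage genes, so no direction is read from it. Gapdh, a glycolytic enzyme, had 1642 and 1155 CPM, and Hk2, a hexokinase, 60.3 and 109.9 CPM. Of 3 genes of Langerhans cells, 1 was higher and 2 lower. Of 10 T cell genes, only Skap1, an adaptor, had enough UMIs, with 31 in WT and 1 in KO, and of 6 epithelial genes only Epcam had. No gene of the B cell, neutrophil or mast cell lists had enough UMIs.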
